A study of Mus musculus with 6 samples.

Results

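Messenger RNA of 10 genes of the actin cytoskeleton was followed in sorted retinal endothelial cells of mouse pups: the cytoplasmic actins Actb and Actg1, the β-thymosins Tmsb4x and Tmsb10, profilin Pfn1, cofilin Cfl1, the myosin light chain Myl6, the tropomyosins Tpm3 and Tpm4, and Arpc1b of the Arp2/3 complex. They were picked by name from the 19124 gene symbols of the deposited table, and all 10 were present and passed the filter on low counts. The choice used a measured value, since Actb held more reads than any other gene in 2 of the KO libraries, so the difference of Actb between the groups is described and not tested. Each gene is represented by its longest transcript entry. All 6 libraries came from C57BL/6 pups with the Rnf20p/p genotype, which received 75 µg of 4-hydroxytamoxifen daily from postnatal day 1 to day 4, and CD31-positive cells were sorted from the retina on day 7. The 3 Ctrl pups were Pdgf{beta}CreERT2neg and the 3 KO pups were Pdgf{beta}CreERT2pos, so the groups share the Rnf20 alleles and the drug and differ in the inducible recombinase, whose driver is used for endothelial cells. The source names give 1 pup for each library.

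Actin monomers assemble into filaments that push the membrane forward, give the cell cortex its tension and carry the pulling force of myosin II. Thymosins hold monomers in reserve, profilin delivers them to growing filament ends, cofilin severs old filaments and returns their monomers, and the Arp2/3 complex nucleates new branches. Tropomyosins line filaments and govern which other proteins may bind them. In growing retinal vessels, filopodia and lamellipodia of tip cells are built from actin, and several of these genes are known targets of serum response factor, which reads the monomer pool through its cofactors and binds the CArG box. Microglia and other leukocytes are also rich in thymosin, profilin, cofilin and actin transcripts.

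The 10 genes lie on 8 chromosomes of GRCm38.p6, so they are no cluster. Actb lies at chr5:142903115-142907976 on the minus strand, Actg1 at chr11:120345687-120348495 (minus), Tmsb4x at chrX:167207093-167213479 (minus), Tmsb10 at chr6:72957347-72958748 (minus) and Pfn1 at chr11:70651844-70656799 (minus). Cfl1 lies at chr19:5490455-5494031 (plus), Myl6 at chr10:128490859-128493886 (minus), Tpm3 at chr3:90072651-90100902 (plus), Tpm4 at chr8:72135288-72153142 (plus) and Arpc1b at chr5:145114256-145128186 (plus). The gene span of Pfn1 overlaps that of Eno3, which held 303 to 955 counts per library against 11609 to 62168 for Pfn1, and Actg1 overlaps Mir6935.

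Promoters from RefSeq, each 250 bases before to 50 after a start site of GRCm38.p6, were found for 9 of the 10 genes, and Actb had no entry. They were searched on both strands for the CArG box and for GGGCGG, the core of sites bound by Sp1-type factors. The CArG box, a run of A or T letters framed by CC and GG, was in the window of 2 of the 9 genes, Actg1 and Myl6, and in 1.63% of all promoters. GGGCGG was in a window of all 9, beside 35.7% of all promoters and 64.4% of the tested genes with a promoter. CCAAT was found for 3 of the 9, beside 42.4% of tested genes, and TATAAA for 0 of the 9, beside 9.13%. A letter match describes the sequence and is not evidence of binding. The 150 bases before the start are shown for the pair with a CArG box and for Pfn1 and Arpc1b, which were among the genes that rose and hold GGGCGG close to the start. Capitals mark the CArG box in the first pair and GGGCGG, or its reverse complement CCGCCC, in the second. The CArG box begins 90 bases before the start of Actg1 (chr11:120348496-120348645, minus) and 50 bases before the inner of the 2 Myl6 starts (chr10:128493010-128493159, minus).
Actg1: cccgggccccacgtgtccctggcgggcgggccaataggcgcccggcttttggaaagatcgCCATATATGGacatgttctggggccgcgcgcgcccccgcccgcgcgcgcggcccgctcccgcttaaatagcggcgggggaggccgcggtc
Myl6: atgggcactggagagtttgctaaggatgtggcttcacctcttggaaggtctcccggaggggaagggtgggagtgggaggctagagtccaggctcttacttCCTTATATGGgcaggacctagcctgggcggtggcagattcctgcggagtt
Pfn1: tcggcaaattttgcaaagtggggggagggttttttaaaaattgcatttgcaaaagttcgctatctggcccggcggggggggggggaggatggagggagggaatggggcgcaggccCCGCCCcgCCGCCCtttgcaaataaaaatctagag
Arpc1b: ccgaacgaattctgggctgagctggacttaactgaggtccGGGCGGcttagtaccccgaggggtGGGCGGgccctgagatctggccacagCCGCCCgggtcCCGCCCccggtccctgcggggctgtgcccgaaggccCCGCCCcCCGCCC
The Pfn1 stretch (chr11:70654651-70654800, minus) holds 2 matches and the Arpc1b stretch (chr5:145114106-145114255, plus) holds 6. Among the other genes that rose, the same stretch holds 0 matches for Cfl1, and 0, 1 and 0 before the starts of Tmsb10. The Actg1 and Myl6 stretches shown also hold GGGCGG in small letters, and that of Actg1 its reverse complement as well. Neither CArG box overlaps a GGGCGG, and of the pair with a CArG box Myl6 rose in KO while Actg1 did not pass the test, a difference that was not itself tested.

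Libraries held 14581701 to 28969300 counts in Ctrl and 25016982 to 30692948 in KO. Levels are CPM, counts divided by the TMM-scaled library size. Rnf20 read 47.9 to 57.1 CPM in Ctrl and 31.0 to 39.1 CPM in KO, a log2 fold change of -0.67 (edgeR adjusted p = 0.101, from 0.00377 to 0.309 over 15 alternatives of the processing). Here and below, adjusted p-values are those of the quasi-likelihood F-test in edgeR, adjusted over all tested genes by the method of Benjamini and Hochberg. The labels do not say which exons are removed. Summed endothelial markers were 3821 to 5798 CPM in Ctrl and 11686 to 15989 CPM in KO, photoreceptor markers 18627 to 33141 and 4736 to 22013 CPM, and microglial markers 302 to 1944 and 298 to 15430 CPM, with KO 2 the highest. Globin and other erythroid markers summed to 62.1 to 98.2 CPM in Ctrl and 460 to 686 CPM in KO, glial markers to 2467 to 3073 and 3055 to 17506 CPM, and mural markers to 211 to 881 and 403 to 818 CPM. The glial sum includes Apoe, at 609 to 1704 CPM in Ctrl and at 445, 14882 and 3770 CPM in KO 1, 2 and 3. Platelet markers summed to 12.7 to 14.0 CPM in Ctrl and 25.6 to 43.0 CPM in KO. Ganglion cell markers summed to 266 to 279 CPM in Ctrl and 395 to 434 CPM in KO. No marker of the endothelial, microglial, photoreceptor or mural lists was at 0 in any library. Both groups thus held transcripts typical of other retinal cells, in different amounts. Xist was at 108 to 209 CPM in Ctrl and 0.0343 to 4.42 CPM in KO, and Ddx3y on the Y chromosome at 0 to 0.130 and 23.9 to 152 CPM, so that genotype and sex cannot be told apart in these libraries. In such bulk RNA, fewer cells of a type and less RNA per cell cannot be told apart.

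All 10 genes had a positive log2 fold change of KO over Ctrl, from 0.36 for Actg1 to 1.77 for Tmsb10, with a median of 1.18 beside 0.03 over all 16217 genes tested. Of the 9 genes other than Actb, 5 rose (Tmsb10, Arpc1b, Pfn1, Myl6 and Cfl1), 0 fell and 4 did not pass an edgeR adjusted p of 0.05. Over all genes, 10.3% were called, 5.85% higher and 4.44% lower. Since the 9 were chosen with earlier results of these data known, their counts here are a description. Every KO library lay above every Ctrl library for 7 of the 9, beside 19.0% of all genes in that direction and 18.9% in the other. DESeq2 called 7 of the 9 higher, adding Tmsb4x and Tpm3, beside 12.6% of all genes. By the authors' deposited table the number higher at an adjusted p under 0.05 was also 7 of the 9, beside 13.6% of its genes. The count depended on single libraries: without any 1 of Ctrl 1, Ctrl 2, Ctrl 3 or KO 2, 0 of the 9, and 0 of all genes, passed edgeR's test. In those 4 fits, in that order, 6, 6, 7 and 7 of the 9 had an unadjusted p under 0.05. So did 4005, 3434, 3479 and 3576 of all genes. Without KO 1 the number that passed was 6 of the 9, beside 4927 of all genes. Without KO 3 it was 4, beside 866 of all genes. With all libraries the number with an unadjusted p under 0.05 was 7, beside 30.5% of all genes. A scaling to equal endothelial markers put the median over all genes at -1.19, and under it 0 of the 9 passed at either level while Actb, Actg1, Tmsb4x, Cfl1, Tpm3 and Tpm4 turned negative.

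**Figure D1:**
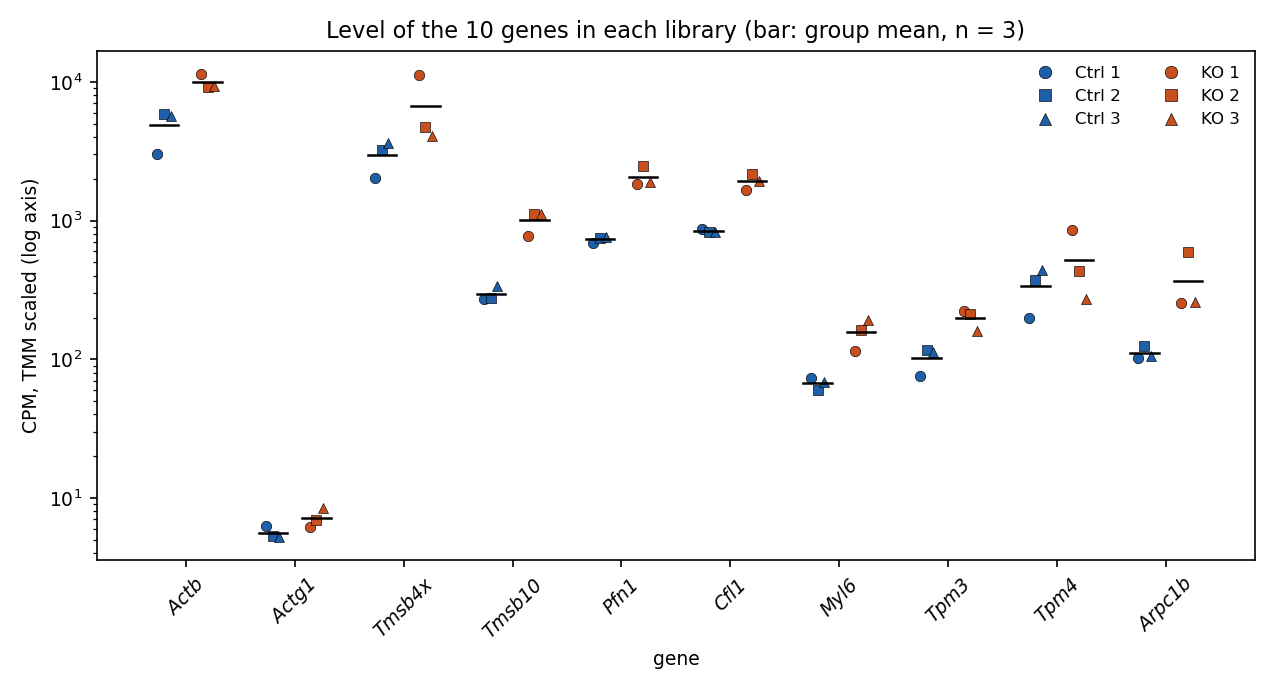
CPM on a log axis (y) of each of the 10 genes (x) in the 3 Ctrl and 3 KO libraries, 1 point per library and a bar at each group mean. The groups are apart for 8 genes and overlap for Actg1 and Tpm4, and Actg1 sits far below the rest at 5.21 to 8.40 CPM.

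Actb, which encodes β-actin, was at 3023, 5880.2 and 5662 CPM in Ctrl 1, 2 and 3 and at 11416, 9249.8 and 9335 CPM in KO 1, 2 and 3. All KO libraries were above all Ctrl libraries, and Ctrl 1 stood lowest by far. The Ctrl mean was 4855 ± 1591 CPM and the KO mean 10000.2 ± 1227 CPM (SD, n = 3 each), a log2 fold change of 1.04 (SE 0.316) given as a description. Among all genes Actb ranked 10, 2 and 2 in the Ctrl libraries and 1, 4 and 1 in the KO libraries. In all 3 Ctrl libraries the rod gene Sag ranked first instead, and in KO 2 the lipoprotein gene Apoe did, at 14882 CPM. The lead of Actb was narrow in KO 1, where Tmsb4x followed at 11248 CPM, and in KO 3, where the neuronal RNA Bc1 followed at 8925 CPM.

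Actg1, which encodes the γ form of cytoplasmic actin, was not among the abundant genes of these libraries, although the genes were grouped as such. It was at 6.25, 5.28 and 5.21 CPM in Ctrl 1, 2 and 3 and at 6.19, 6.93 and 8.40 CPM in KO 1, 2 and 3. These values rest on 80 to 245 counts a library. Its groups overlapped, and the log2 fold change of 0.36 (SE 0.333) had an edgeR adjusted p of 0.496, with 0.176 to 0.797 over the alternatives. The ratio of Actg1 to Actb was between 0.0543% and 0.207% in every library. Of the 50-base windows of the Actg1 transcript, the length of the reads, 56.7% also occur in transcripts of other genes, mostly in Gm12715 (51.1%), compared with 14.2% for Actb. How reads with several matches were treated is not given in the sources used here, so the level of Actg1 is uncertain.

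Tmsb4x, the main thymosin that holds actin monomers, is X-linked and was at 2027, 3249 and 3627 CPM in Ctrl 1, 2 and 3. It was at 11248, 4753 and 4089 CPM in KO 1, 2 and 3. The groups did not overlap, but KO 1 stood far above the other KO libraries, which were closer to Ctrl 3 than to KO 1. The mean went from 2968 ± 836 CPM to 6697 ± 3956 CPM (SD, n = 3 each), and the log2 fold change of 1.17 (SE 0.439) did not pass (edgeR adjusted p = 0.119, range 0.0395 to 0.989 over the alternatives). Without KO 1 the log2 fold change was 0.65. No 50-base window of its transcript occurs in another gene, unlike Tmsb10.

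Tmsb10, the second abundant β-thymosin, had the largest log2 fold change of the 10 genes. It was at 271, 275 and 339 CPM in Ctrl 1, 2 and 3 and at 776, 1116 and 1117 CPM in KO 1, 2 and 3, with a wide gap between the groups. The mean rose from 295 ± 38.1 CPM to 1003 ± 197 CPM (SD, n = 3 each), a fitted ratio of 3.40 (log2 1.77, SE 0.262, edgeR adjusted p = 0.0211, 3.05e-07 to 0.237 over the alternatives). The lowest KO library of Tmsb10 was KO 1, the highest of Tmsb4x. The ratio of Tmsb10 to Tmsb4x was 13.4%, 8.45% and 9.34% in Ctrl 1, 2 and 3, and in KO 1, 2 and 3 it was 6.90%, 23.5% and 27.3%, which overlapped (exact two-sided permutation test, p = 0.4; 0.1 is the smallest p that 3 against 3 allows). Windows shared with other genes made up 43.5% of the Tmsb10 transcript.

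Pfn1, which encodes profilin and feeds monomers to growing ends, was at 694, 746 and 757 CPM in Ctrl 1, 2 and 3 and at 1826, 2476 and 1902 CPM in KO 1, 2 and 3. The Ctrl libraries were within a narrow band, and every KO library was above it by a factor larger than the spread within either group. The mean rose from 732 ± 33.6 CPM to 2068 ± 355 CPM (SD, n = 3 each), log2 1.50 (SE 0.243, edgeR adjusted p = 0.0217, 3.29e-06 to 0.553 over the alternatives). None of its transcript windows is shared with another gene, so of the 5 genes that rose its count is the least ambiguous by sequence, apart from its overlap with Eno3. Eno3 itself had a log2 fold change of -0.35 (edgeR adjusted p = 0.591), overlapping between groups.

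The neuronal profilin Pfn2 was at 131, 120.4 and 149 CPM in Ctrl and 137, 43.9 and 62.9 CPM in KO, a log2 fold change of -0.72 that did not pass the test. The ratio of Pfn2 to Pfn1 was 18.8%, 16.1% and 19.6% in Ctrl and 7.49%, 1.77% and 3.31% in KO, without overlap (exact two-sided permutation test, p = 0.1, the smallest possible). This pair, like the other pairs of related genes given here, was chosen after the values were seen. Inner retinal neuron markers summed to 2354 to 2691 CPM in Ctrl and 763 to 1436 CPM in KO, and their part in the ratio was not tested.

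Cfl1, the cofilin of non-muscle cells, was at 863, 826 and 829.8 CPM in Ctrl 1, 2 and 3, the tightest Ctrl values of the 10 genes in relation to their mean. It was at 1674, 2156 and 1925 CPM in KO 1, 2 and 3, all well above Ctrl. The mean rose from 839 ± 20.2 CPM to 1919 ± 241 CPM (SD, n = 3 each), log2 1.19 (SE 0.231, edgeR adjusted p = 0.0241, 9.04e-05 to 0.960 over the alternatives). Profilin and cofilin act on opposite ends of the filament cycle, and both genes rose. The ratio of Cfl1 to Pfn1 was 124%, 111% and 110% in Ctrl and 91.7%, 87.1% and 101% in KO, without overlap (exact two-sided permutation test, p = 0.1, the smallest possible).

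No rise past the test was found for the other members of the cofilin family. Cfl2, a muscle-type cofilin, had a log2 fold change of -0.62, and Dstn, the related destrin, of -0.08, and neither passed the test. Both were highest in KO 1, at 111 CPM for Cfl2 and 426 CPM for Dstn, and low in KO 2 and KO 3, at 20.4 and 24.8 CPM and at 149 and 157 CPM. Their ratios to Cfl1 overlapped between groups (exact two-sided permutation test, p = 0.2 for each).

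Arpc1b, a subunit of the Arp2/3 complex that is prominent in leukocytes, was at 102, 124 and 105 CPM in Ctrl 1, 2 and 3 and at 254, 591 and 257 CPM in KO 1, 2 and 3. The groups did not overlap, and KO 2 stood far above the other KO libraries. The mean rose from 110.3 ± 11.7 CPM to 367 ± 194 CPM (SD, n = 3 each), log2 1.74 (SE 0.374, edgeR adjusted p = 0.0309, 0.000442 to 0.348 over the alternatives). Without KO 2 the log2 fold change was 1.23. KO 2 was also the library with the largest microglial marker sum, 15430.2 CPM beside 298 in KO 1 and 2999 in KO 3. In KO 1 the microglial sum was near that of Ctrl 3, 302 CPM, and Arpc1b in KO 1 was above every Ctrl library at 254 CPM.

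The 12 leukocyte actin regulators summed to 335 to 524 CPM in Ctrl and to 708, 1767 and 543 CPM in KO 1, 2 and 3. Coro1a, a coronin of leukocytes, was at 41.1, 38.8 and 18.0 CPM in Ctrl and 43.6, 344 and 90.6 CPM in KO, and the leukocyte GTPase Rac2 at 9.77, 15.6 and 4.11 CPM and 9.49, 153 and 27.9 CPM. Both were in KO 1 near their level in Ctrl 1, and neither passed the test. Coro1a and Rac2 were chosen after their values were seen, and not all of the list was highest in KO 2. The leukocyte plastin Lcp1 was at 387, 346 and 133 CPM in KO 1, 2 and 3 and at no more than 258 CPM in Ctrl. What part leukocyte RNA had in Arpc1b was not tested.

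Arpc1a, the paralog of Arpc1b in the same position of the complex, was at 119.9, 93.1 and 99.1 CPM in Ctrl and 105, 129 and 151 CPM in KO, a log2 fold change of 0.30 that did not pass the test. The ratio of Arpc1b to Arpc1a was 84.9%, 133% and 106% in Ctrl 1, 2 and 3, while KO 1, 2 and 3 read 243%, 459% and 170%. These did not overlap (exact two-sided permutation test, p = 0.1, the smallest possible). The ratio is one of CPM and is not corrected for the longer Arpc1b transcript, so it compares the groups and not the levels of both genes. Windows shared with other genes made up 42.2% of the Arpc1b transcript used, 28.9% with Pdap1.

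Myl6, the essential light chain of non-muscle and smooth muscle myosin II, was at 73.4, 60.2 and 68.0 CPM in Ctrl 1, 2 and 3 and at 115, 162 and 191 CPM in KO 1, 2 and 3. The groups were apart, with KO 1 the lowest of the KO libraries. The mean rose from 67.2 ± 6.61 CPM to 156 ± 38.6 CPM (SD, n = 3 each), log2 1.22 (SE 0.264, edgeR adjusted p = 0.0312, 0.00109 to 0.976 over the alternatives). Its paralog Myl6b read 3.45 to 5.02 CPM in Ctrl and 3.43 to 5.66 CPM in KO, and the ratio of Myl6b to Myl6 did not overlap, 1.79% to 3.49% in KO against 5.08% to 7.53% in Ctrl (exact two-sided permutation test, p = 0.1, the smallest possible). Entries of Myl6 that begin at the inner start, the one with the CArG box, held 78.8% of the counts of the longest entry in Ctrl and 78.7% in KO. Since the entries overlap almost wholly, this says little about which start was used. Of the Myl6 transcript windows, 53.3% occur in other genes.

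Tpm3, a tropomyosin of non-muscle filaments and slow muscle, was at 75.6, 117 and 112 CPM in Ctrl 1, 2 and 3 and at 223, 211 and 159 CPM in KO 1, 2 and 3. The groups did not overlap, with KO 1 the highest and Ctrl 1 the lowest library. The Ctrl mean was 102 ± 22.7 CPM and the KO mean 198 ± 34.0 CPM (SD, n = 3 each), log2 0.96 (SE 0.270), and the edgeR adjusted p of 0.0589 (0.0143 to 0.616 over the alternatives) was just above the threshold. Tpm3 has 7 deposited entries, and the one with the lowest count sum spans 19479 bases beside 28251 for the longest. It held 36.0% to 45.4% of the longest entry's counts in Ctrl and 28.5% to 41.6% in KO, which overlapped (exact two-sided permutation test, p = 0.8). An entry of 21381 bases held at least 99.5% in every library. These shares say little about which start was used. Tpm3 had the highest share of windows found in other genes, 62.4%, all of it shared with the copy Tpm3-rs7.

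Tpm4, the other abundant non-muscle tropomyosin, was at 199.9, 372 and 443 CPM in Ctrl 1, 2 and 3 and at 857, 434 and 273 CPM in KO 1, 2 and 3. KO 1 stood above all other libraries, while KO 2 and KO 3 lay within the Ctrl range. The Ctrl mean was 338 ± 125 CPM and the KO mean 522 ± 302 CPM (SD, n = 3 each), and the log2 fold change of 0.63 (SE 0.464) did not pass (edgeR adjusted p = 0.395, 0.151 to 0.806 over the alternatives). Without KO 1 it was 0.14. The ratio of Tpm4 to Tpm3 was 265%, 318% and 395% in Ctrl and 384%, 206% and 172% in KO, which overlapped (exact two-sided permutation test, p = 0.3).

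The 10 genes together took 0.741%, 1.25% and 1.26% of the counts of Ctrl 1, 2 and 3 and 2.90%, 1.92% and 1.83% of those of KO 1, 2 and 3. Actb and Tmsb4x alone made up 66.2% to 79.8% of that sum in every library. Per kilobase of transcript, genes can be compared with each other only as far as their reads were counted alike. Windows shared with other genes ran from 0% for Tmsb4x and Pfn1 to 56.7% for Actg1 and 62.4% for Tpm3. How such reads were treated is not given, so the order below is one of counted reads. On this scale Tmsb4x led in Ctrl with a mean of 3864 ± 1089 CPM per kilobase (SD, n = 3). Actb followed at 2529 ± 828, and the Ctrl ranges of the 2 overlapped. Pfn1 came next at 850.2 ± 39.0, then Tmsb10 at 427 ± 55.3, Cfl1 at 357 ± 8.60, Tpm4 at 159 ± 58.7, Myl6 at 101 ± 9.95, Tpm3 at 45.5 ± 10.2, Arpc1b at 35.5 ± 3.78 and Actg1 at 2.86 ± 0.298. In that order the Ctrl ranges of neighbours did not overlap between Actb and Pfn1, Pfn1 and Tmsb10, Tmsb10 and Cfl1, Cfl1 and Tpm4, Myl6 and Tpm3, or Arpc1b and Actg1, and did overlap for Tmsb4x and Actb, Tpm4 and Myl6, and Tpm3 and Arpc1b. In KO the order kept Tmsb4x first at 8719.7 ± 5151, Actb at 5208 ± 639 and Pfn1 at 2402 ± 413 CPM per kilobase, and Arpc1b at 118 ± 62.3 passed Tpm3 at 88.5 ± 15.2, within their spread. The transcripts used for Arpc1b (3105 bases) and Cfl1 (2354 bases) are long ones, which lowers their values on this scale.

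The 10 genes did not follow a single pattern across the KO libraries. KO 1 was the highest KO library for Actb, Tmsb4x, Tpm3 and Tpm4, KO 2 for Pfn1, Cfl1 and Arpc1b, and KO 3 for Actg1, Tmsb10 and Myl6. Ctrl 1 was the lowest Ctrl library for 7 of the 10, and it also had the lowest endothelial and the highest photoreceptor marker sum of the Ctrl group. As a measure of likeness, the log2(CPM + 1) of each gene was centred on its mean over the 6 libraries and the root mean square difference of pairs was taken. Cfl1 and Myl6 (0.172), Pfn1 and Cfl1 (0.173) and Actb and Tpm3 (0.178) were the closest of the 45 pairs, whose median was 0.493, and Tmsb10 and Tpm4 (0.926) were the farthest apart. The shared difference between the groups is part of this measure, and the points share library and depth.

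**Figure D2:**
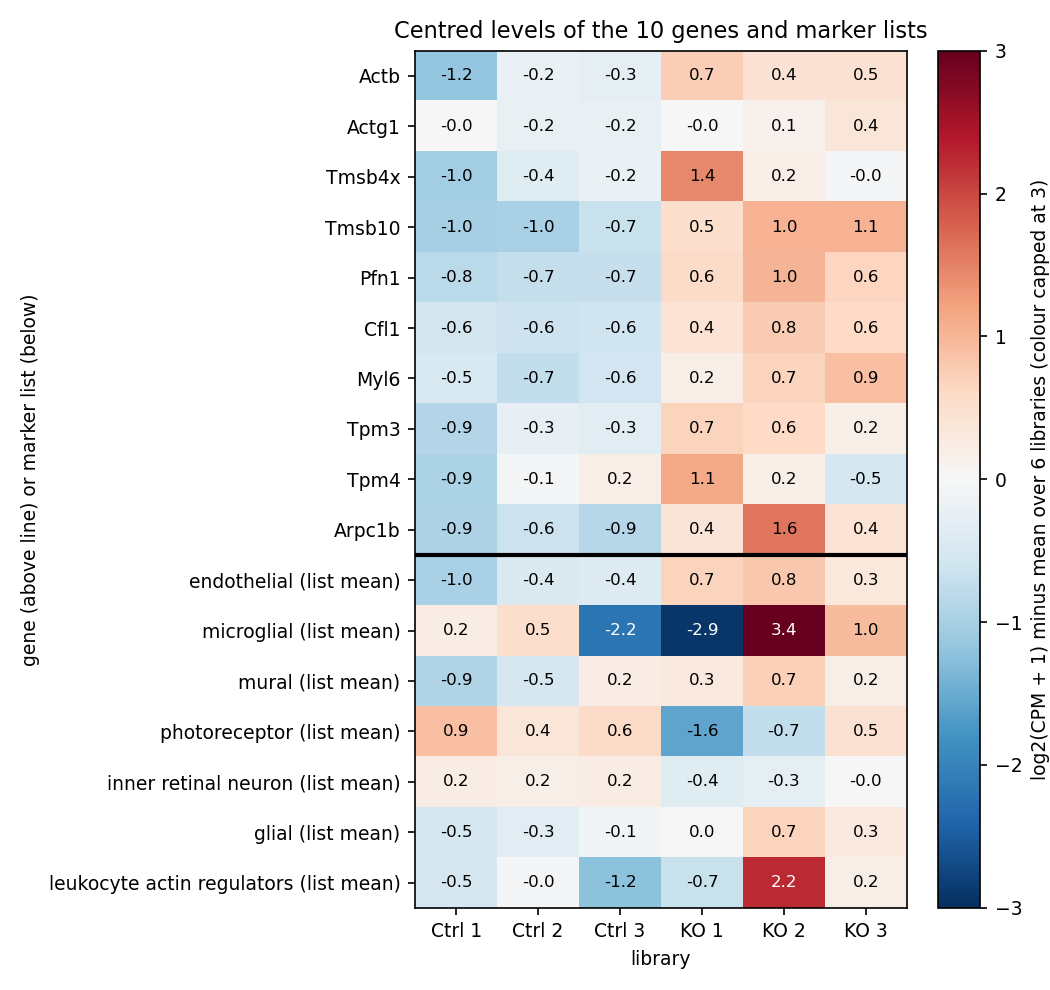
Colour gives log2(CPM + 1) minus its mean over the 6 libraries (colour capped at 3) for the 10 genes (above the line) and the mean of each marker list (below), 1 column per library. Actb, Tmsb4x, Tpm3 and Tpm4 are highest in KO 1, Arpc1b and the microglial list in KO 2.

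Because the sorted cells are labelled endothelial and the endothelial marker sum differed between the groups, each gene was also set against the mean log2(CPM + 1) of 15 endothelial markers in its own library, a difference nearly free of library scaling. That marker mean was 7.76 ± 0.330 in Ctrl and 8.96 ± 0.259 in KO (SD, n = 3 each), 1.19 higher in KO, near the median log2 fold change of the 10 genes. Against it, 7 of the 10 genes were lower in KO and 3 higher, with a median difference of -0.05 on the log2 scale. The groups were apart for 2 of them, Actg1 and Tpm3, both lower in KO relative to the markers. The same counts were not taken over all genes, whose median log2 fold change under the endothelial scaling was -1.19. These counts therefore describe the 10 genes and do not show how they compare with other genes. The 9 exact two-sided permutation tests could not give a p below 0.1.

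For Tmsb10, which endothelial and other cells express, the level against the markers was 0.70, 0.18 and 0.43 in Ctrl 1, 2 and 3, while KO 1, 2 and 3 read 0.57, 0.96 and 1.46, a difference of 0.56 with overlap (exact permutation test, p = 0.2). Pfn1 differed by 0.29 and Arpc1b by 0.42, and each overlapped as well. Cfl1 and Myl6 each differed by -0.01, less than their SDs of 0.364 and 0.445 within Ctrl. Tmsb4x differed by -0.13, Tpm4 by -0.65 and Actb by -0.09, all with overlap. Tpm3 was at -1.13, -1.05 and -1.16 in Ctrl and -1.23, -1.44 and -1.35 in KO, a small but separate shift of -0.23 (exact permutation test, p = 0.1). Actg1 differed by -0.88 (exact permutation test, p = 0.1), from values of 80 to 245 counts.

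**Figure D3:**
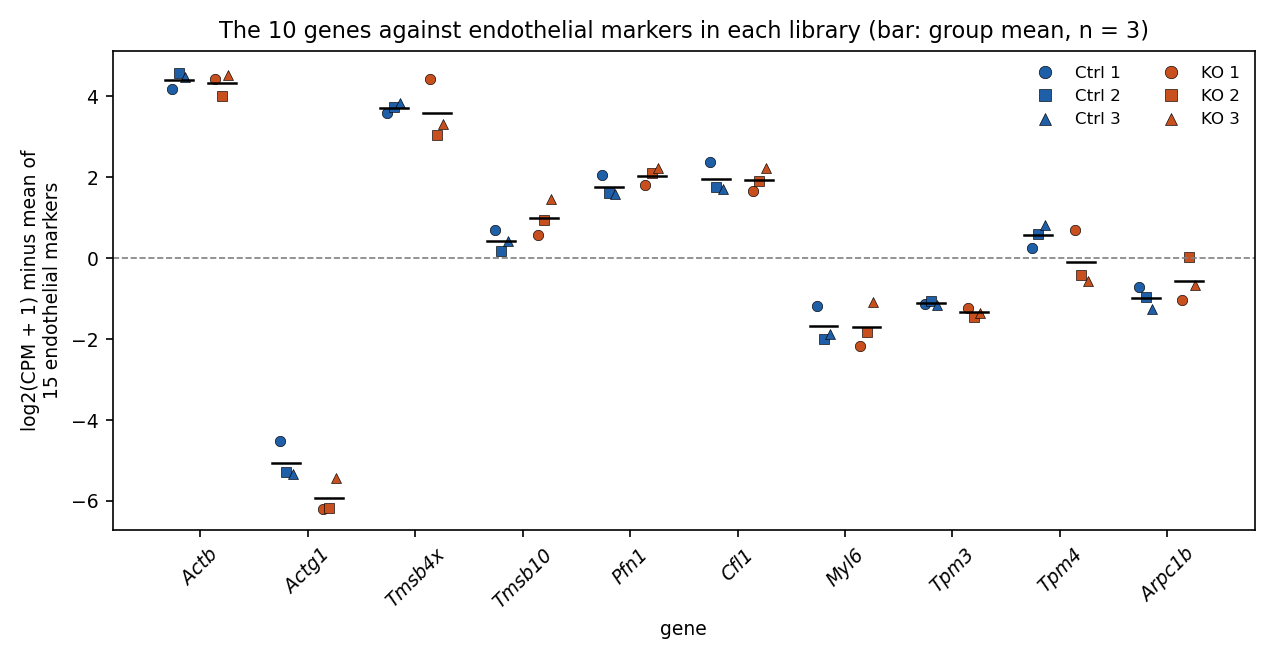
Difference between log2(CPM + 1) of each gene and the mean of 15 endothelial markers in the same library (y) for the 10 genes (x), 1 point per library and a bar at each group mean. Ctrl and KO points intermingle for 8 genes, and Actg1 and Tpm3 are lower in KO in every library.

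The wider actin machinery was read through 155 other genes in 13 lists by function, of which 150 were tested. In KO 25 of them rose, 16.7% beside 5.85% of all genes, and 4 fell, beside 4.44% of all genes, with a median log2 fold change of 0.51. The 4 that fell were Cyfip2 (-1.04) of the WAVE complex, the formins Fmn1 (-1.14) and Fhod3 (-1.35), and Rnd3 (-1.34), named after their values were seen. Without any 1 of Ctrl 1, Ctrl 2, Ctrl 3 or KO 2 no pathway gene passed. With libraries scaled to equal endothelial markers 1 rose and 47 fell, beside 75 and 7114 of all genes. The 10 genes were included in these pathway counts, and of those other than Actb none passed under this scaling. Adjusted p-values of the genes that rose and are given with a value lay between 0.0211 (Arpc3, Inf2 and Vasp) and 0.0435 (Elk3) in edgeR.

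Among crosslinkers and membrane linkers 5 of 20 rose (Cnn2, Tagln2, Fscn1, Actn1 and Zyx), 0 fell, and the median was 0.79. Cnn2, a calponin, had a log2 fold change of 1.37, and Tagln2, a transgelin of non-muscle cells, of 1.34, with KO values of 516 to 532 CPM that lay close together. Actn4, an α-actinin and of the highest CPM in the list, was at 0.99 and did not pass.

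The 10 genes have other partners in their own lists. In the Arp2/3 complex 2 of the 9 subunits other than Arpc1b rose, Arpc3 (log2 1.85, from 40.0 to 50.6 CPM in Ctrl to 134 to 198 CPM in KO) and Arpc4 (1.09), while Arpc2, of the highest CPM in the list, was at 0.70 and did not pass. Of 15 activators of the complex 2 rose and 1 fell. Those that rose were Wasf2 (1.55), the WAVE protein at lamellipodia, and Brk1 (1.04), a small subunit of the same complex. Cyfip1, of the highest CPM in that list, was at 0.48 without passing.

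Among the 9 tested monomer binders outside the 10 genes, which include other thymosins and profilins, 1 rose and 0 fell. The one that rose was the twinfilin Twf2 (log2 1.85), while the list median was -0.72 and its paralog Twf1 was at -0.15 without passing. Of 17 genes on cofilin and severing, 1 rose, the cofilin kinase Tesk1 (1.42, from 6.00 ± 0.628 to 16.1 ± 4.31 CPM, SD, n = 3 each), and Wdr1, of the list's highest CPM and a partner of cofilin in disassembly, was at 0.41 without passing. Of 17 formin and Ena/VASP genes 3 rose and 2 fell. Inf2, a formin that also severs, was at 11.5 to 12.1 CPM in Ctrl and 37.7 to 45.6 CPM in KO (log2 1.82), and Vasp, an elongation factor, rose by 1.68.

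None of the 4 other actins and none of the 7 other tropomyosins and tropomodulins passed. Tmod3, a pointed-end cap and of the highest CPM of the latter, was at 0.41. Cardiac actin Actc1, the other actin of highest CPM, was at 88.3, 25.0 and 25.5 CPM in Ctrl and 23.2, 13.3 and 24.9 CPM in KO (log2 -1.18, not past the test), so that Ctrl 1 alone was high. Among 12 genes of non-muscle myosin II, 1 rose, the heavy chain Myh9 (1.22), at nearly the same log2 fold change as its light chain Myl6, and the regulatory light chain Myl12a, of the highest CPM, was at 1.02 without passing.

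Capping and adducin genes had a negative median of -0.51, and 1 of 8 rose, the capping protein subunit Capzb (0.95). Of 7 genes around serum response factor 1 rose, the ternary complex factor Elk3 (1.36), and Srf itself was at 0.78 without passing. Of the 12 leukocyte actin regulators 1 rose, the gelsolin-related Capg (1.57), though the median of that list was 1.71, and Lcp1, its gene of highest CPM, was at 0.51. As given beside Arpc1b, Coro1a and Rac2 of that list were far higher in KO 2 than in any other library, while Lcp1 was highest in KO 1.

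**Figure D4:**
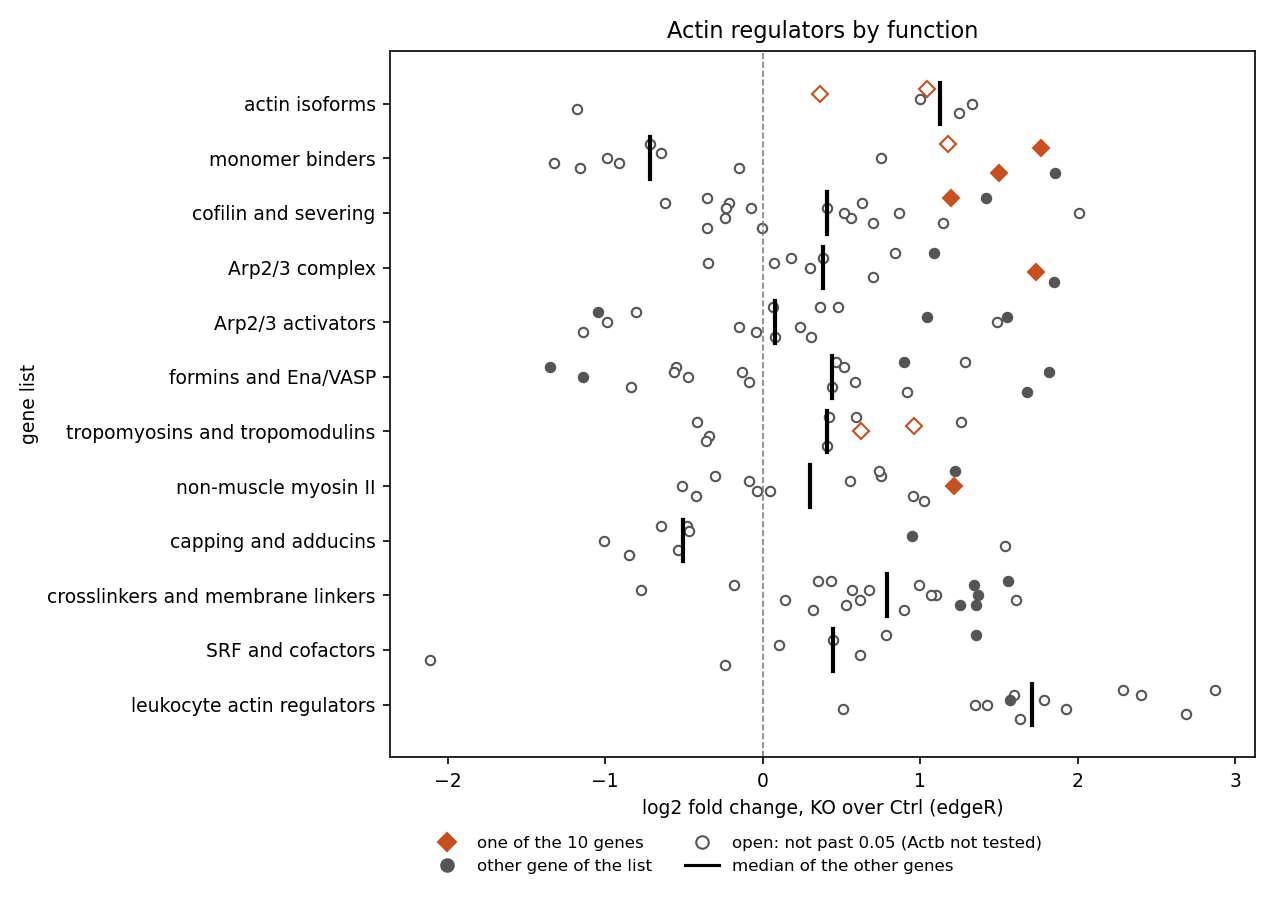
Log2 fold change of KO over Ctrl from edgeR (x) for each tested gene of 12 of the 13 functional lists (y). Diamonds are the 10 genes and circles the other genes of a list, filled where the adjusted p is under 0.05, with a vertical tick at the median of the other genes, which is 0.79 for crosslinkers and membrane linkers and -0.72 for monomer binders.

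Genes whose levels ran most like those of Actb across the 6 libraries were sought among 5190 other genes with a mean of at least 50 CPM, by the same root mean square difference. They were Kdelr2, a receptor that returns proteins to the endoplasmic reticulum (0.0848), the endothelial cadherin Cdh5 (0.0864), prothymosin Ptma (0.111), Rhoa (0.112) and the lysosomal membrane gene Laptm4a (0.118), beside a median of 0.771 over all candidates. Cdh5 was at 164, 281 and 272 CPM in Ctrl 1, 2 and 3 and at 541, 490.0 and 502 CPM in KO 1, 2 and 3. It thus shared with Actb the low Ctrl 1 and the near-equal KO libraries. Cdh5 is itself one of the 15 endothelial markers. Tpm3 was the closest of the other 9 actin genes.

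**Figure D5:**
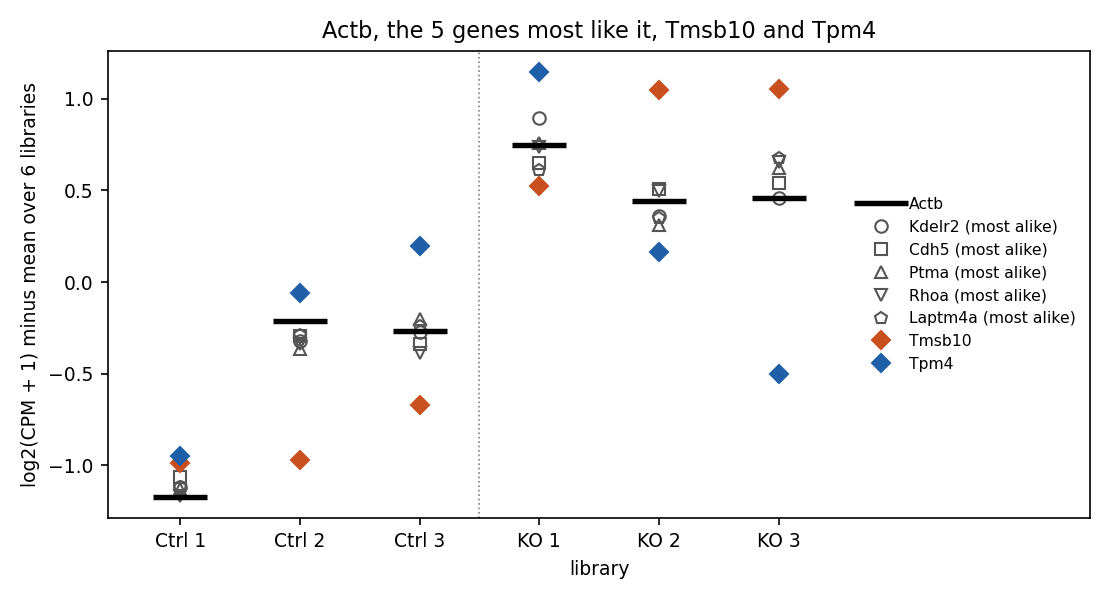
Log2(CPM + 1) minus its mean over the 6 libraries (y) in each library (x) for Actb, the 5 genes most like it, Tmsb10 and Tpm4. The 5 genes were picked for the smallest difference from Actb, so their symbols lie nearly on that of Actb in every library. Among the KO libraries Tpm4 is high in KO 1 only, and Tmsb10 is lowest there.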

How the data were processed

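Messenger RNA of sorted retinal endothelial cells was measured in 3 Ctrl and 3 KO libraries, as full-length cDNA from low input sequenced in single 50-base reads without strand, per the labels' protocols. Tools listed in the submitters' processing notes are Trimmomatic 0.36, STAR, DESeq2, edgeR and deepTools, with the build mm10. Which tool counted the reads is not given in the sources used here. What was deposited holds, per the file headers and values, the authors' raw counts for 34035 transcript entries. Per the file headers, the authors also deposited normalized counts (a signal, each count divided by 1 size factor of its library), RPKM, a log2 fold change with its error, a Wald score, and a p-value with its adjusted form. The raw count column of Ctrl 3 carries another number in its name and was assigned because its ratio to the normalized column of Ctrl 3 is constant. RPKM was not used, since its length is a genomic span.

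For each symbol the longest entry was taken (ties by count sum). edgeR 4.0.16 in R 4.3.3 fitted KO against Ctrl on 16217 genes left by filterByExpr, with TMM scaling, quasi-likelihood F-tests and Benjamini-Hochberg adjustment at 0.05. SE is the log2 fold change divided by the root of F. Exact two-sided permutation tests and likeness used log2(CPM + 1). Alternatives were DESeq2 1.42.0, limma-voom 3.58.1, other scalings, a GC offset, no filter, another entry, a replicate block and each library left out. Checked on simulated counts with 200 genes changed, the fit recovered 93 and made 5 false calls over 15893 genes. Depth was 14581701 to 30692948 counts per library. Transcript lengths and 50-base windows came from GENCODE M21, promoters and coordinates from RefSeq (GRCm38.p6, 1-based).

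The 10 genes and all lists were chosen with earlier results of these data known. Genes named beside them were, from each list, up to 2 that passed with the smallest p and its gene of highest mean CPM, the 5 genes most like Actb, and Rnf20. Paralogs, genes counted as falling, Eno3, Coro1a, Rac2 and the leading genes of libraries were named after their values were seen. Of the 13 lists 1 is counted in the totals and is not reported separately here.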

Additional observations from a re-analysis of the deposited data

How the results depend on the processing

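Of all genes, 1668 passed, and 3556 did with DESeq2, 7189 with libraries scaled to equal endothelial markers and 0 to 4927 with 1 library left out. Of the 9 genes other than Actb, 5 passed, and 0 with the endothelial scaling and 0 to 6 with 1 library left out. Genes of the actin lists passing numbered 34, including 5 of the 9, and 60 with DESeq2 and 0 to 72 with 1 library left out. Marker genes passing numbered 28, and 18 with the GC offset and 0 to 49 with 1 library left out. The 0 counts came without Ctrl 1, Ctrl 2, Ctrl 3 or KO 2, where 3434 to 4005 genes still had an unadjusted p under 0.05. The highest counts came without KO 1. Calls higher in KO were 56.8% of the total, 44.6% with the GC offset and 1.04% with the endothelial scaling. The cause of these changes was not tested.

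With the replicate number as a block, 1 gene passed, and 2 did with the block and the GC offset together. Under both fits 0 of the 9, 0 genes of the actin lists and 0 marker genes passed. Deviations of same-numbered libraries from their group means correlated at -0.53, 0.06 and -0.34, and those of differently numbered ones at -0.43 to 0.54. So few values cannot settle whether the numbers carry a pairing. In the order Tmsb10, Pfn1, Arpc1b, Cfl1 and Myl6, the log2 fold changes were 1.77, 1.50, 1.74, 1.19 and 1.22 without a block. They were 1.75, 1.49, 1.62, 1.19 and 1.19 with the block alone. With the block and GC offset together they were 1.26, 1.17, 1.44, 1.09 and 0.96.

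With the endothelial scaling the log2 fold change was -0.0943 for Actb, -0.85 for Actg1, -0.00841 for Tmsb4x, -0.0264 for Cfl1, -0.23 for Tpm3, -0.55 for Tpm4, -0.83 for Wdr1, -0.12 for Arpc4, -0.50 for Arpc2, -0.17 for Brk1, -0.77 for Cyfip1, -0.77 for Tmod3, -0.00850 for Myh9, -0.15 for Myl12a, -0.28 for Capzb, -0.22 for Actn4, -0.73 for Lcp1, -0.0252 for Kdelr2, -0.0489 for Cdh5, -0.0187 for Ptma and -0.0587 for Laptm4a. Twf1 was at 0.25 with the GC offset and at 0.23 with the block and GC offset.

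Set against the endothelial markers, the median difference of the 10 genes ran from -0.18 to 0.0559 with 1 library left out, turning positive without Ctrl 1 (0.00542) and without KO 2 (0.0559). For Actb it ran from -0.22 to 0.0634, for Tmsb4x from -0.54 to 0.15, for Cfl1 from -0.16 to 0.20 and for Myl6 from -0.32 to 0.24. Positive values came without KO 2 for all 4, and also without KO 3 for Tmsb4x (0.00763) and without Ctrl 1 or KO 1 for Cfl1 and Myl6.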
